A study of Mus musculus with 2 samples.

Results

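The Mir181 family comprises 6 microRNA genes in 3 clusters of the mouse genome, and its members were taken by symbol from the 1973 microRNA genes counted in this series. Mir181c and Mir181d lie on chromosome 8, Mir181a-2 and Mir181b-2 on chromosome 2, and Mir181a-1 and Mir181b-1 on chromosome 1. All 6 were found in both tables. Small RNAs with a labelled size below 30 nt were sequenced from hindbrain by microRNA-seq, a method that joins adapters to the ends of short RNAs. The animals were B6NCrl mice on postnatal day 0, and the labels name no treatment and no collected sex. There is 1 group of 2 libraries, made from the whole hindbrains of pup 3 and pup 1. No condition was compared, so the data address how many reads were counted at each Mir181 gene and how far the animals differed.

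A microRNA is cut from a hairpin precursor, and the strand that is kept pairs with messenger RNAs mainly through its seed, bases 2 to 8, and lowers their translation and stability. Genes with the same seed can act on the same messenger RNAs. In mouse thymocytes miR-181a is known to raise the sensitivity of the T cell receptor by lowering phosphatases, and mice without the chromosome 1 cluster lack most natural killer T cells. In neurons miR-181a is known to act on an AMPA receptor subunit at synapses, in medaka it takes part in the growth of retinal axons, and in endothelial cells miR-181b is known to dampen NF-kappaB signalling.

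The sequences below, from RefSeq (GRCm38.p6), are shown because their likeness decides which reads can be told apart. The 6 genes gave 4 distinct 5p arms, all with the same seed, which is in capitals, and no other gene of the 1058 in the table had an arm with that seed.
miR-181a-5p of Mir181a-1 and Mir181a-2: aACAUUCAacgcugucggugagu
miR-181b-5p of Mir181b-1 and Mir181b-2: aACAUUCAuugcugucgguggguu
miR-181c-5p of Mir181c: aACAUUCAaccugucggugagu
miR-181d-5p of Mir181d: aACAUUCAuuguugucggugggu
Counted from the 5′ end, miR-181d-5p differed from miR-181b-5p by C12U and by the lack of the last base, and miR-181c-5p was miR-181a-5p with the base at position 11 removed. Between miR-181a-5p and miR-181b-5p the substitutions were A9U, C10U and A21G. Outside the seed the arms therefore form 2 pairs, miR-181a with miR-181c and miR-181b with miR-181d, and each cluster holds a gene of either kind.

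The copies on chromosomes 1 and 2 differ only outside the 5p arm. In the hairpins of these 4 genes, capitals mark the longest run that a gene shares with its copy.
Mir181a-1 (chromosome 1): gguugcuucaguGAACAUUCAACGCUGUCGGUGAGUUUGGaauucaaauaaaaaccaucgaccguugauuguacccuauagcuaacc
Mir181a-2 (chromosome 2): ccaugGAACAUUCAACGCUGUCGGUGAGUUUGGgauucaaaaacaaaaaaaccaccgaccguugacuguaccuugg
Mir181b-1 (chromosome 1): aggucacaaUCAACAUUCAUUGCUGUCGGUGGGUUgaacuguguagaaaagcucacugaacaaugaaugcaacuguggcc
Mir181b-2 (chromosome 2): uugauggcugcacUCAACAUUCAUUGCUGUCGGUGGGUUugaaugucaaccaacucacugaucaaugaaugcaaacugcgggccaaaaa
The run shared by Mir181a-1 and Mir181a-2 was 28 nt long and held the whole 23-nt arm with 1 base before it and 4 after it. The run shared by Mir181b-1 and Mir181b-2 was 26 nt long, held the whole 24-nt arm with 2 bases before it, and ended with the arm's last base. The tables count reads that map to a single locus, by the layout inferred from their rows. A 5p read without additions from any of these 4 genes maps to both of its loci, so it is not in the values below. Reads with several matching loci were 42.0% of the library of pup 3 and 40.2% of that of pup 1, and how many of them came from Mir181 genes is not known.

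The 3p arms can be told apart at all 6 genes. Here capitals mark the bases that differ between copies.
miR-181a-1-3p: accaUcgaccguugaUuguacc
miR-181a-2-3p: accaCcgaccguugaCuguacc
miR-181b-1-3p: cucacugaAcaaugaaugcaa
miR-181b-2-3p: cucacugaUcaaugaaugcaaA
The first pair differed by U5C and U16C and the second by A9U and 1 added base. The counts are per precursor, so the arms of a gene are summed in each value. Mir181c and Mir181d, whose arms are found whole at no other hairpin in the table, are the members whose whole 5p arm can be counted. A 5p read of the other members can be placed only if it runs past the stretch that the copies share. After that stretch the next base is A at Mir181a-1 and G at Mir181a-2, and G at Mir181b-1 and U at Mir181b-2. Since the miR-181b stretch ends with the arm, an arm with 1 U added at its end matches Mir181b-2, whichever copy it came from. How many such reads were counted is not known.

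Each cluster spans a short stretch, as the map of precursors shows. Mir181c (chr8:84178873-84178961, mm10, minus strand) and Mir181d (chr8:84178716-84178787) are 85 nt apart in an intron of a transcript of Nanos3 and on its strand. Nanos3 itself is an RNA-binding protein of germ cells. Mir181a-2 (chr2:38852735-38852810, plus strand) and Mir181b-2 (chr2:38853830-38853918) are 1019 nt apart, opposite an intron of Nr6a1, an orphan nuclear receptor, and Mir181b-2 also lies opposite an exon of Gm44144. Mir181a-1 (chr1:137966455-137966541, plus strand) and Mir181b-1 (chr1:137966639-137966718) are 97 nt apart in an intron of the non-coding gene Gm4258. Mir181b-1 lies within the exon of the lincRNA A430106G13Rik, which overlaps the last 11 nt of Mir181a-1.

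**Figure D1:**
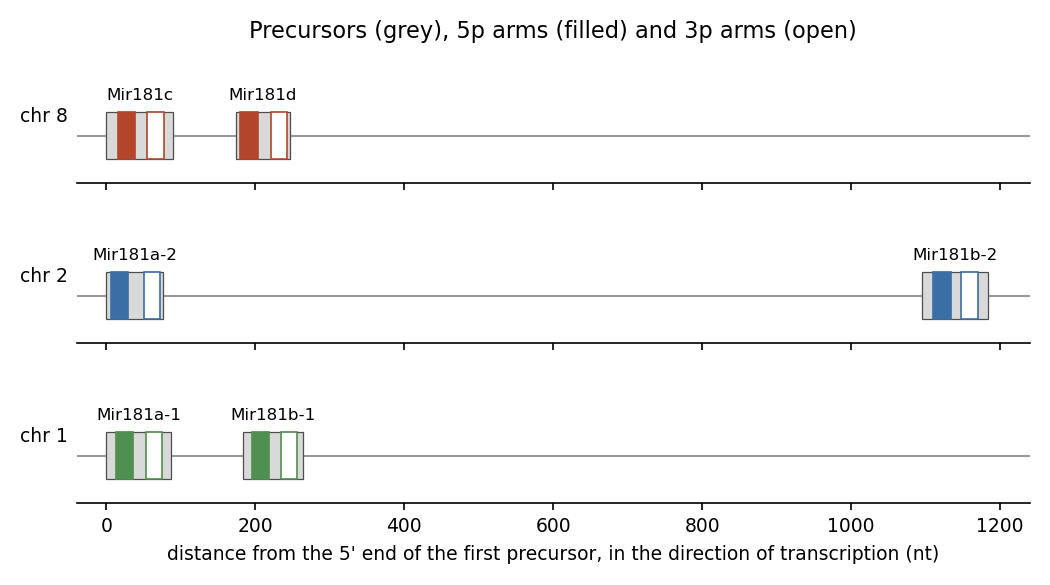
The 3 clusters drawn to scale, with distance in nt from the 5′ end of the first precursor in the direction of transcription; grey boxes are precursors, filled boxes 5p arms and open boxes 3p arms. The genes are 85 nt apart on chromosome 8, 1019 nt on chromosome 2 and 97 nt on chromosome 1.

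The family as a whole held 68597 counts in pup 3 and 60890 counts in pup 1. The same-strand total over all microRNA genes was 3012320 counts in pup 3 and 2459757 in pup 1, and the family held 2.28% and 2.48% of it. The share averaged 2.38% ± 0.140 (SD, n = 2 pups, as for all values given with ±). Reads that fit several loci are in neither the family's counts nor the total, so the share covers placed reads only. Levels are given as CPM, counts scaled to these totals, and intervals are exact 95% binomial intervals, which cover counting error only.

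Mir181c was the member with the highest level in the reads that could be placed. It had 37186 counts in pup 3 and 31274 in pup 1, or 12345 CPM (interval 12220.2 to 12470.0) and 12714 CPM (12575 to 12855). It ranked 17 of 1973 genes in pup 3 and 16 in pup 1, and its levels in the pups were close to each other. Mir181d, its neighbour, had 15784 and 15162 counts in pups 3 and 1, or 5239.8 CPM (interval 5159 to 5322) and 6164 CPM (6067 to 6263), at ranks 41 and 33. Mir181d was thus the second of the family in both libraries, below Mir181c in each.

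On chromosome 1 the 2 neighbours stood far apart in the reads that could be placed, which lack 5p reads that also fit chromosome 2. Mir181a-1 had 13710 counts in pup 3 and 11558 in pup 1, or 4551 CPM (interval 4476 to 4628) and 4699 CPM (4614 to 4785), at ranks 52 and 45. Mir181b-1, 97 nt downstream, had 24 and 21 counts, or 7.97 CPM (interval 5.10 to 11.9) in pup 3 and 8.54 CPM (5.28 to 13.1) in pup 1, at ranks 318 and 316. It was the lowest member in both pups, and its intervals are wide because they rest on so few reads.

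On chromosome 2 the order in the reads that could be placed was turned round, with the miR-181b gene above the miR-181a gene. Mir181b-2 had 1407 counts in pup 3 and 2446 in pup 1, or 467 CPM (interval 443 to 492) and 994 CPM (955 to 1035), at ranks 142 and 101. Mir181a-2 had 486 and 429 counts, or 161 CPM (interval 147 to 176) in pup 3 and 174 CPM (158 to 192) in pup 1, at ranks 204 and 193. The intervals of Mir181a-2 overlapped between the pups, and Mir181b-2 was lower in pup 3 than in pup 1.

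**Figure D2:**
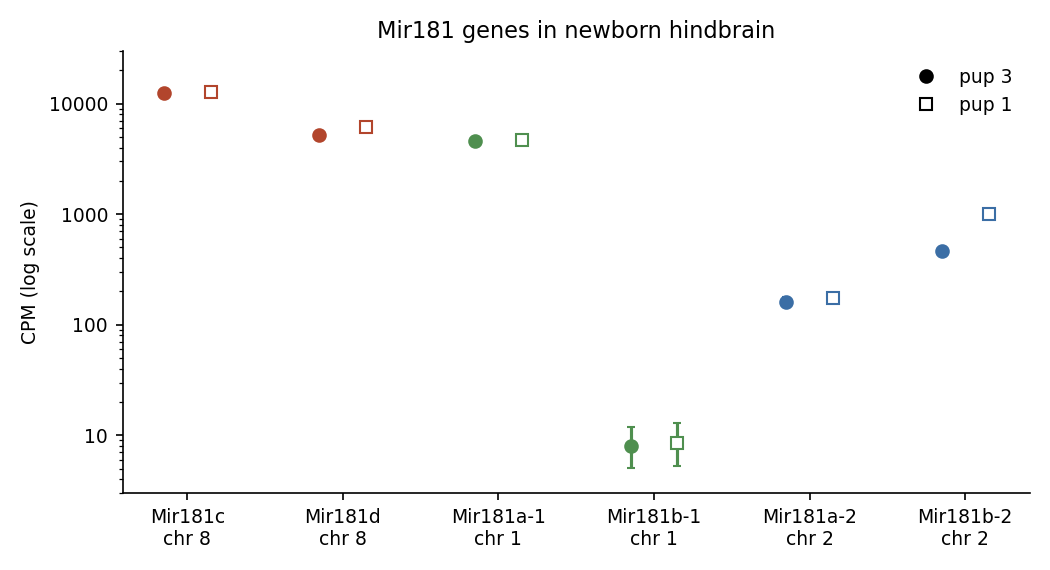
Level of each Mir181 gene in CPM on a log axis, with filled circles for pup 3, open squares for pup 1, exact 95% binomial intervals as bars (smaller than most symbols) and colours for the clusters. Mir181c reached 12345 and 12714 CPM in pups 3 and 1, Mir181b-1 only 7.97 and 8.54 CPM, and Mir181b-2 shows the widest gap between the pups, with 467 and 994 CPM.

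The order of the members by mean level was Mir181c at 12529.5 ± 261 CPM, Mir181d at 5702 ± 654 CPM, Mir181a-1 at 4625 ± 104 CPM, Mir181b-2 at 731 ± 373 CPM, Mir181a-2 at 168 ± 9.24 CPM and Mir181b-1 at 8.25 ± 0.403 CPM. The order was the same in both pups. At each step the lower of the 2 values of a gene lay above the higher value of the next gene, and the smallest step was from Mir181d to Mir181a-1, with a ratio of means of 1.23 and values of at least 5239.8 CPM against at most 4699 CPM. With 2 pups this is a description and was not tested. Per nt of precursor the order of mean levels was also the same, with 140.8 CPM per nt for Mir181c, 79.2 for Mir181d, 53.2 for Mir181a-1, 8.21 for Mir181b-2, 2.21 for Mir181a-2 and 0.103 for Mir181b-1.

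Of the family's counts, the chromosome 8 cluster held more than the other clusters together. Its share was 77.2% in pup 3, with an exact interval of 76.9% to 77.5%, and 76.3% in pup 1, with one of 75.9% to 76.6%, a mean of 76.7% ± 0.677. The chromosome 2 cluster had 2.76% in pup 3 (2.64% to 2.88%) and 4.72% in pup 1 (4.55% to 4.89%), a mean of 3.74% ± 1.39. The chromosome 1 cluster had 20.0% in pup 3 (19.7% to 20.3%) and 19.0% in pup 1 (18.7% to 19.3%), a mean of 19.5% ± 0.711. The share of chromosome 2 was lower in pup 3 and those of chromosomes 8 and 1 were higher there, each by about 1 percentage point. Only the chromosome 8 cluster holds 5p arms that occur at a single locus, so its excess over the other clusters cannot be told apart from the loss of 5p reads at the other 4 genes.

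As a ratio, the chromosome 8 cluster had 3.86 times the counts of the chromosome 1 cluster in pup 3 and 4.01 times in pup 1 (mean log2 ratio 1.98 ± 0.04). Over the chromosome 2 cluster it had 28.0 times the counts in pup 3 and 16.2 times in pup 1 (mean log2 ratio 4.41 ± 0.56). The log2 ratio of chromosome 2 to chromosome 1 was -2.86 in pup 3 (interval -2.93 to -2.79) and -2.01 in pup 1 (interval -2.07 to -1.95). All 3 log2 ratios differed between the pups beyond counting error, by unequal amounts. Pup 3 minus pup 1, the difference was 0.79 for chromosome 8 over 2 (exact conditional interval 0.71 to 0.88), -0.85 for chromosome 2 over 1 (-0.94 to -0.76) and -0.06 for chromosome 8 over 1 (-0.10 to -0.02).

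Neighbours that are annotated 85 to 1019 nt apart on 1 strand had unequal counts in each cluster, in the reads that could be placed. Only Mir181c and Mir181d share no arm with another member, so the ratios are not like measures. Those in the other clusters lack reads that fit both copies. The stretch that copies share runs further past the arm at Mir181a-1 than at Mir181b-1, so this loss may be unequal between neighbours. Those ratios therefore do not compare the output of the genes. The log2 ratio of Mir181c to Mir181d was 1.24 in pup 3 (interval 1.21 to 1.26) and 1.04 in pup 1 (1.02 to 1.07). That of Mir181a-2 to Mir181b-2 was -1.53 in pup 3 (interval -1.69 to -1.38) and -2.51 in pup 1 (-2.66 to -2.36). That of Mir181a-1 to Mir181b-1 was 9.16 in pup 3 (interval 8.58 to 9.80) and 9.10 in pup 1 (8.49 to 9.80), or 571 and 550.4 times as many counts. Between the pups the log2 ratio differed by 0.19 for Mir181c over Mir181d (exact conditional interval 0.15 to 0.23) and by 0.98 for Mir181a-2 over Mir181b-2 (0.76 to 1.19). For Mir181a-1 over Mir181b-1 the difference was 0.05, with a wide interval of -0.86 to 0.96.

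Copies that encode the same 5p arm were uneven too. Mir181a-1 had 28.2 times the counts of Mir181a-2 in pup 3 and 26.9 times in pup 1, and held 96.5% ± 0.110 of the pair's counts. Mir181b-2 had 58.6 times the counts of Mir181b-1 in pup 3 and 116 times in pup 1, and held 98.7% ± 0.584. The higher copy of miR-181a is therefore on chromosome 1 and that of miR-181b on chromosome 2. Since a whole 5p arm fits both copies, these ratios compare only the reads that could be placed, and not the output of the loci.

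Uneven copies were common among microRNAs encoded at several loci. Of 26 microRNAs with numbered copies in the tables and at least 10 counts at 1 of them, the highest copy held a median of 80.6% of the counts, and among the 24 other than miR-181a and miR-181b, 6 reached at least the share of Mir181a-1. Of those known from neurons or glia, Mir9-3 had 433 and 524 CPM in pups 3 and 1 and Mir9-2 had 1.66 and 1.22 CPM, on 5 and 3 counts. The counts in pups 3 and 1 were 17 and 12 at Mir124a-1, 9 and 4 at Mir124a-2, and 2 and 3 at Mir124a-3. The copies of these microRNAs also share mature sequence, so reads that fit several copies are missing from these counts, which give no level of the mature microRNA. Closer to each other were Mir128-1 (5957 ± 941 CPM) and Mir128-2 (2034 ± 217 CPM), and Mir138-1 (1599 ± 611 CPM) and Mir138-2 (1003 ± 323 CPM). In between were Mir129-2 (796 ± 261 CPM) and Mir129-1 (201 ± 71.0 CPM), and the oligodendrocyte genes Mir219a-2 (939 ± 156 CPM) and Mir219a-1 (117 ± 1.16 CPM). Of the summed counts of the paralogous Mir17, Mir106b and Mir106a clusters, whose 15 listed genes all had rows, the Mir17 cluster held 60.6% ± 1.98, the Mir106b cluster 38.3% ± 1.95 and the Mir106a cluster 1.09% ± 0.0289.

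**Figure D3:**
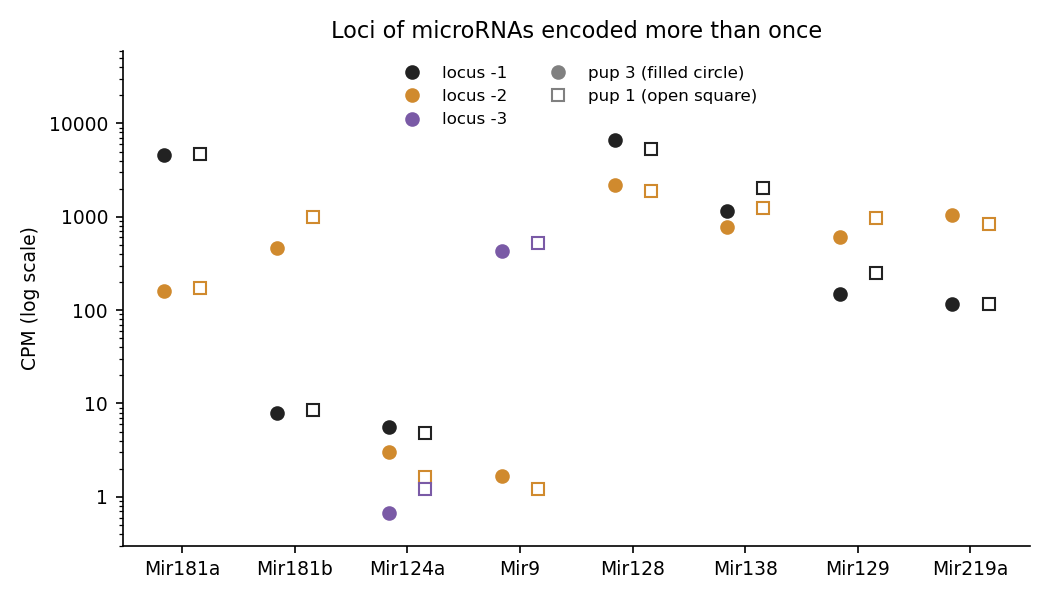
Level in CPM (log axis) of each copy of the microRNAs encoded at several loci that are named in the text, with filled circles for pup 3 and open squares for pup 1. The copies of Mir181a and Mir181b lie 26.9 to 116 times apart, while those of Mir128 and Mir138 lie close together.

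Each gene's 2 counts were compared by an exact binomial test given totals scaled by TMM, a normalization for composition, over the 395 genes that reached 10 counts in pup 3, pup 1 or both. The test asks whether the libraries differ beyond counting error and concerns no condition. The log2 folds are pup 3 over pup 1. Of the 6 members, all tested, 4 were lower in pup 3 and none was higher at a Benjamini-Hochberg adjusted p of 0.05. Over all genes the test called 46.8% in either direction and 21.3% as lower in pup 3, with 101 genes higher and 84 lower, so a call by itself says little of a gene. All 6 members had a negative fold, as had 187 of the 395 genes, and the members' median was -0.16 against 0.02 over all genes tested.

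Among the members, Mir181b-2 stood out in size. With 467 CPM in pup 3 and 994 CPM in pup 1, its log2 fold was -1.14 (interval -1.24 to -1.05, exact binomial test, adjusted p = 2.92e-128). It was the only member called past 1.5-fold, which 9.62% of all genes were. Of the 226 genes at 100 CPM or more in each library, none had a lower fold, and the 10 tested genes that did had at most 329 counts in either pup. Mir10b, with 30713 and 51306 counts in pups 3 and 1, was close at -1.09. Its interval of -1.11 to -1.07 lay within that of Mir181b-2. The neighbour of Mir181b-2, Mir181a-2, did not pass (log2 fold -0.17, interval -0.36 to 0.03, exact binomial test, adjusted p = 0.156). The copy of Mir181b-2, Mir181b-1, did not pass either (-0.16, interval -1.06 to 0.76, adjusted p = 0.878, same exact test). The log2 ratio of Mir181b-2 to Mir181b-1 was 5.87 in pup 3 and 6.86 in pup 1, a difference of -0.99 with an exact conditional interval of -1.91 to -0.08. That interval is wide because it rests on the 24 and 21 counts of Mir181b-1.

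The other called members differed little. Mir181d had a log2 fold of -0.29 (interval -0.32 to -0.26, exact binomial test, adjusted p = 2.40e-67). Mir181a-1 had one of -0.10 (interval -0.13 to -0.06, adjusted p = 2.00e-07, same exact test) and Mir181c one of -0.10 (interval -0.12 to -0.07, adjusted p = 3.54e-17, same exact test). These rest on at least 11558 counts in each library, where a small difference already exceeds counting error.

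The spread between animals is larger than counting error. The common biological coefficient of variation over 361 genes was 16.5% (edgeR), and at that value the log2 folds of 2 animals have an SD of 0.33. It was estimated from these same 2 libraries, so every difference between the pups is part of this spread. In units of this SD the fold was -3.42 for Mir181b-2, -0.86 for Mir181d, -0.50 for Mir181a-2 and closer to 0 for the other members. By an exact negative binomial test that includes this spread, 0.506% of the genes tested, or 2, were called, and no member was. Since the spread came from the pair of libraries that was tested, the low number of calls is partly built in. Mir181b-2 had an adjusted p of 0.0952 in that test (edgeR), and the other members had 1.

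**Figure D4:**
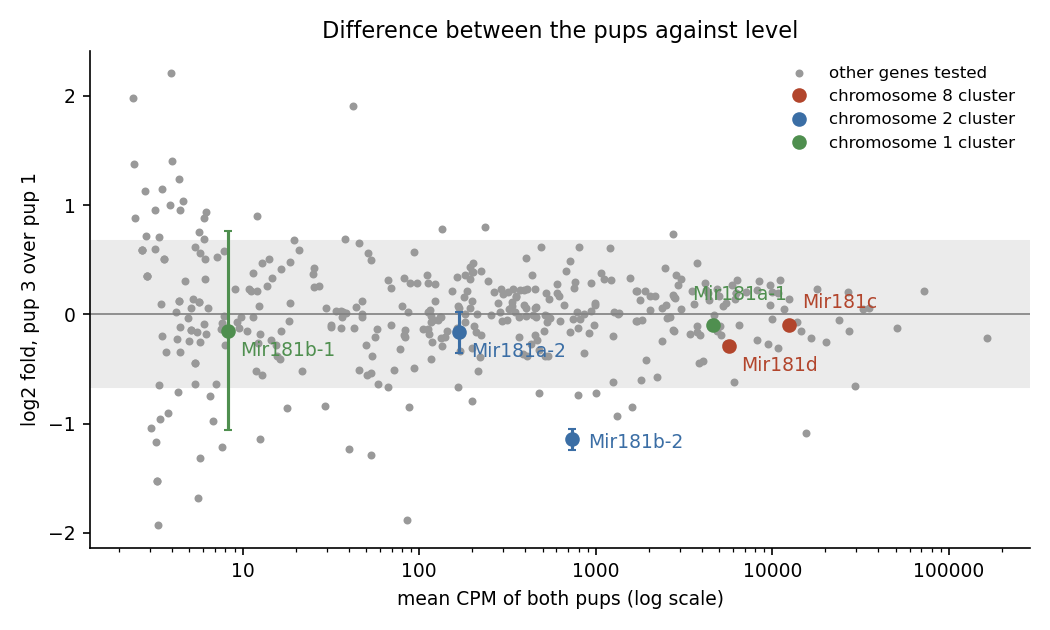
Log2 fold of pup 3 over pup 1 against mean CPM (log axis) for the 395 genes tested, with members coloured by cluster and bars for their exact 95% intervals; the grey band spans 2 SDs of a fold on either side of 0. Mir181b-2, at a log2 fold of -1.14, lies below the band, and the other 5 members lie within it. The SD was estimated from the same libraries.

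The microRNA markers of the tissue and its cells did not all move together between the pups, and their part in the fold of Mir181b-2 was not tested. Summed levels in pups 3 and 1 were 41898 and 39490.5 CPM for the neuronal list, of which 7 of 10 genes reached 10 CPM in both, and 2000.5 and 1626 CPM for the oligodendrocyte list (3 of 3). They were 34281 and 57126 CPM for the list of hindbrain position (4 of 6), encoded in Hox clusters. That sum was lower in pup 3 and rested mostly on Mir10a (log2 fold -0.65) and Mir10b (-1.09), both called lower. Mir196b (-0.38), Mir615 (-0.07) and Mir196a-2 (0.35, on few counts) were not called. Summed in the same way, levels in pups 3 and 1 were 36931 and 34216 CPM for the endothelial gene Mir126a, the only list member with a row. They were 683 and 611 CPM for leukocytes and microglia (4 of 5) and 105 and 151 CPM for red blood cells (2 of 2). The 2 red blood cell genes moved in opposite directions. Their counts in pups 3 and 1 were 202 and 42 at Mir144, and 113 and 329 at Mir451a. Striated muscle (1 of 4, at 125 and 98.4 CPM) and the liver gene Mir122 (45.5 and 41.9 CPM) were low. Of the listed genes, Mir142b, Mir196a-1, Mir1a-1, Mir133a-1 and Mir133a-2 had no count on their own strand in either pup.

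Among the rows matched to GENCODE M21, no other gene lay within 50 kb of the clusters on chromosomes 1 and 2. The 79 rows without a match could not be placed. Near chromosome 8's cluster, Mir23a, Mir27a and Mir24-2 lie 29556 to 30027 nt away on the opposite strand, and they were higher in pup 3, where Mir181c and Mir181d were lower. Mir23a had 9038 and 7452 CPM in pups 3 and 1 (log2 fold 0.23, exact binomial test, adjusted p = 1.32e-59), Mir27a 239.7 and 167 CPM (0.47, adjusted p = 3.26e-07, same exact test) and Mir24-2 138 and 109.8 CPM (0.27, adjusted p = 0.0336, same exact test). Gm25110, also on the opposite strand there, had no count. The binomial test called 46.8% of all genes tested, so these calls by themselves say little. The SD of a log2 fold between the pups was 0.33.

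The genes nearest to each member in level, by Euclidean distance of log2(CPM + 1) over the 2 libraries, were Mir137 for Mir181c (distance 0.17) and Mir93 for Mir181d (0.07). They were Mir434 for Mir181a-1 (0.07), Mir669c for Mir181a-2 (0.05) and Mir5113 for Mir181b-1 (0.0, with equal counts). For Mir181b-2 it was Mir129-2 at a distance of 0.39, with 611 and 980.2 CPM in pups 3 and 1, so no gene matched Mir181b-2 as closely as the other members were matched. With 2 libraries such likeness is one of level only.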

How the data were processed

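For each of the 2 libraries the authors provided raw read counts per microRNA gene, based on mm10 and GENCODE M4, per the file listings deposited beside them. Aligner and trimming: not given in the sources used here. Column meaning was inferred: the first of 3 columns equals the sum of the others, and the one that holds nearly all counts was taken as the gene's own strand. The 4 rows that name no gene held 58.0% of reads in pup 3 and 57.7% in pup 1 and were left out of totals. Symbols came from GENCODE M21 (1894 of 1973 rows matched), and sequences from RefSeq, where 6 members had mature arms and 5 a hairpin; Mir181c had none. Nothing states that reads were collapsed to molecules. Intervals and tests therefore cover the counting error of reads only, and may be too narrow for that of molecules.

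Folds add 0.5 counts and use TMM totals over all rows (edgeR 4.0.16, R 4.3.3), with intervals and tests computed in R and shares in scipy 1.17.1. Exact conditional intervals of differences between ratios were added after the values were seen. With 1 library a side, edgeR's quasi-likelihood test could not be run. The pups are separate animals. The scripts were tested on simulated data. Named genes were the members, the gene nearest each in level, neighbours within 50 kb, and copies of 6 brain microRNAs. Members and lists were chosen with earlier results of these data known. Alternatives covered scaling (DESeq2 1.42.0 size factors, plain totals), the CPM denominator, filter, strand, precursor length and test.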

Additional observations from a re-analysis of the deposited data

Results flagged for a closer look

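Reads that map to several loci lie outside every comparison above and exceed the 3 counts that a count of 0 allows. They made up 42.0% of all reads in pup 3 (3015969 reads) and 40.2% in pup 1 (2337021 reads). Which of them came from the shared 5p arms of Mir181a-1, Mir181a-2, Mir181b-1 and Mir181b-2 was not tested.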

How the results depend on the processing

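The exact negative binomial test adds a spread between pups that was estimated from the same libraries. It called 2 genes as different between the pups, against 185 by the binomial test. The 4 members called by the binomial test were then no longer called. TMM over the tested genes alone, chosen after seeing the data, gave 76 genes higher and 105 lower in pup 3, against 101 and 84, and called Mir181a-2 as well (log2 fold -0.24, exact binomial test, adjusted p = 0.0276). The signs of the members' folds stayed the same under all 6 alternatives. With the negative binomial test and without a filter the folds are the main ones by construction, so their signs could not change there. Per nt of precursor, the shares of chromosomes 8 and 1 were 77.6% and 18.8%, and the log2 ratios were 2.05 for chromosome 8 over chromosome 1, 0.83 for Mir181c over Mir181d and 9.01 for Mir181a-1 over Mir181b-1. CPM depend on the denominator: with all reads in the table Mir181c had a mean of 5281 CPM and Mir181b-2 308 CPM, against 12529.5 and 731, and without the most abundant gene they had 15007 and 879 CPM. Without Mir181b-2, the shares of chromosomes 8 and 2 were 79.1% and 0.729%. With 1 pup left out in turn, shares lay between 76.3% and 77.2% for chromosome 8, 2.76% and 4.72% for chromosome 2, and 19.0% and 20.0% for chromosome 1. These are the shares of the single pups given above, so leaving a pup out adds no check. The coefficient of variation stayed between 16.5% and 16.6%. Of the 7 values for shares and ratios above that moved by over 1 SD, none changed direction. The chromosome 2 share rests on Mir181b-2, and a level at Mir181b-1 on 24 and 21 counts. No paired analysis was possible because there is 1 group.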
